A study of Mus musculus with 8 samples.

Results

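Galectins are small proteins that bind beta-galactoside sugars on glycoproteins and glycolipids. Transcripts of 6 genes, the 5 galectin genes Lgals1, Lgals3, Lgals4, Lgals8 and Lgals9 and the gene of a galectin-binding glycoprotein, Lgals3bp, were followed among 35906 genes with counts in sorted liver macrophages. The genes were taken by symbol, and all 6 were found. Galectins lack a signal peptide, act in the cytosol, and also leave the cell to crosslink sugar-bearing receptors on its surface or on neighbouring cells. Galectin-3, galectin-8 and galectin-9 are known to gather on damaged endosomes and lysosomes, where luminal sugars become exposed to the cytosol. Macrophages are a main source of galectin-3 in injured liver, and galectin-1 and galectin-3 have been studied as contributors to fibrosis and to the damping of T cell responses.

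CCl4, carbon tetrachloride, kills hepatocytes and is given in repeated doses to make mouse livers fibrotic. The 8 libraries were 4 from CCl4-treated and 4 from vehicle-treated wild-type BALB/c mice, and the labels call the livers fibrotic or healthy. Macrophages were sorted as live CD45+ F4/80+ cells, with CD31- added by the design text, and their RNA was amplified before library preparation. The sources used here do not give the dose, route and duration of CCl4, the age and sex of the mice, or whether each library is 1 mouse. The p-values therefore cover the variation among these libraries, some of which may be technical.

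Library totals ran from 19489104 to 26196063 estimated counts. CCl4 library 4 and vehicle library 2 stood apart on the second principal component, at 73.9 and 31, with CCl4 library 1 at 25.5 and the others below 0. CCl4 4 also had the most genes detected (23868), so the galectin results are given with and without these 2 libraries. The mitochondrial share of counts separated the groups, at 0.763% to 1.16% in CCl4 libraries and 1.91% to 5.31% in vehicle libraries, vehicle 2 being the highest. Its part in the differences between the groups was not tested. Across 15212 genes tested by edgeR's quasi-likelihood test with Benjamini-Hochberg adjustment, 1358 (8.93%) were called higher in CCl4 and 953 (6.26%) lower at an adjusted p under 0.05. The median log2 fold change of all genes was -0.03. With library size as the sole scaling 1082 genes were higher and 1431 lower around a median of -0.16, and with upper-quartile scaling 1226 were higher and 1356 lower around -0.12.

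Of the 6 genes, all passed the filter on low counts, 2 rose and 0 fell, against 8.93% and 6.26% of all genes tested. At an unadjusted p under 0.05 the counts by edgeR were also 2 and 0, against 15.4% and 12.9% of all genes, and DESeq2 called 2 and 0, against 11.7% and 8.09%. Those that rose were Lgals3 and Lgals1, the genes of the galectins with a single sugar-binding domain per chain, to 2.82 and 2.13 times their vehicle level. Lgals8, Lgals9 and Lgals4, which encode tandem-repeat galectins with a pair of different sugar-binding domains in 1 chain, were not called, and neither was Lgals3bp. The median log2 fold change of the 6 genes was 0.31, against -0.03 for all genes, and the 2 groups did not overlap in normalized CPM, counts scaled to a common library total, for 2 of 6 genes, against 22.5% of all genes tested. These are bulk samples, in which more cells of a kind and more RNA per cell cannot be told apart.

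Because several galectin genes make transcripts that differ inside the coding sequence, the sequences at those points are shown with the shares of transcripts that were measured there. In Lgals9 the transcripts Lgals9-203 and Lgals9-202 differ by exon 5, 93 bases at chr11:78969714-78969806 on the minus strand (GENCODE M21, mm10), which lies between the parts that encode the sugar-binding domains. The exon is in capitals, with 15 bases of each neighbouring exon in lower case, 5′ to 3′ on the transcript.
Lgals9-203 with exon 5: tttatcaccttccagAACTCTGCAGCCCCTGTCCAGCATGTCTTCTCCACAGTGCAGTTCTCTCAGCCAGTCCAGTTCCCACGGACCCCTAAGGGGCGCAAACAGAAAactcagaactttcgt
Lgals9-202 without exon 5: tttatcaccttccagactcagaactttcgt
In Lgals8 the transcript Lgals8-208 has 27 more bases at the end of exon 5 than Lgals8-201, at chr13:12453258-12453284 on the minus strand, shown in capitals between 15 shared bases on each side.
Lgals8-208 longer exon 5: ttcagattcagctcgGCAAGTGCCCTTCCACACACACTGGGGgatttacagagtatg
Lgals8-201 shorter exon 5: ttcagattcagctcggatttacagagtatg

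Lgals3 (chr14:47367751-47386160, plus strand) encodes galectin-3, the chimera-type galectin, whose long N-terminal tail lets it form multimers and lattices on cell surfaces. Its level was 5464, 2599, 4584 and 3495 TPM, a length-corrected share of a library's transcripts, in CCl4 libraries 1 to 4, and 1483, 1644, 1376 and 1367 TPM in vehicle libraries 1 to 4. Each CCl4 library lay above every vehicle library, CCl4 1 and 3 were the highest and CCl4 2 the lowest of its group, and the vehicle libraries lay close together. The mean was 4036 ± 1251 TPM in CCl4 and 1468 ± 129 TPM in vehicle (SD, n = 4 each). The log2 fold change was 1.50 (SE 0.26, 95% interval 0.93 to 2.07, edgeR adjusted p = 0.00247). Without CCl4 4 and vehicle 2 it was 1.71 (edgeR adjusted p = 0.00272), and leaving out 1 library at a time it stayed between 1.31 and 1.67, with an adjusted p of at most 0.0117.

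Lgals3 was among the most abundant transcripts of these macrophages. Ranked by TPM over all genes it stood at positions 14, 35, 17 and 23 in CCl4 libraries 1 to 4, and at 80, 72, 85 and 85 in vehicle libraries 1 to 4. The deposited FPKM table gave a mean of 439 ± 148 FPKM in CCl4 and 168 ± 15.5 FPKM in vehicle (SD, n = 4 each), again with no overlap between the groups.

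Lgals1 (chr15:78926725-78930465, plus strand) encodes galectin-1, the prototype galectin, which works as a dimer and is known for dampening T cell responses. It had 547, 677, 531 and 494 TPM in CCl4 libraries 1 to 4, and 239, 349.8, 219 and 263 TPM in vehicle libraries 1 to 4. The groups did not overlap. CCl4 2 was the highest library and vehicle 2 the highest of the vehicle libraries. The means were 562 ± 79.6 TPM in CCl4 and 268 ± 57.6 TPM in vehicle (SD, n = 4 each), and the log2 difference was 1.09 (SE 0.21, 95% interval 0.63 to 1.55, edgeR adjusted p = 0.00451). Without CCl4 4 and vehicle 2 the log2 fold change was 1.41 (edgeR adjusted p = 0.000185), and it ran from 0.99 to 1.31 when libraries were left out singly, with an adjusted p of at most 0.0186. Its FPKM averaged 60.7 ± 15.4 in CCl4 and 29.7 ± 4.53 in vehicle (SD, n = 4 each).

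**Figure D1:**
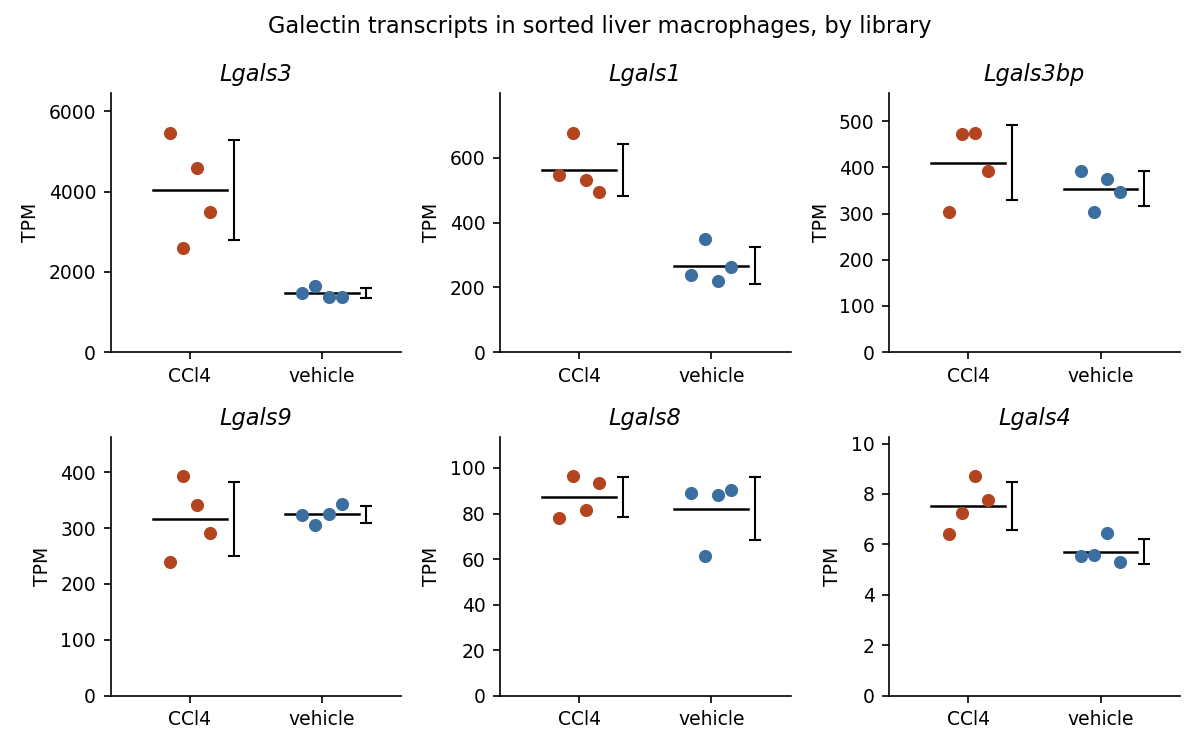
TPM of each of the 6 genes in each library, CCl4 left and vehicle right in every panel, with points for libraries, lines for means and bars for SD (n = 4). The CCl4 and vehicle points separate for Lgals3 and Lgals1 and overlap for the other 4 genes.

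Lgals9 (chr11:78962974-78984946, minus strand) encodes galectin-9, a ligand of the receptor TIM-3 and a gene that interferons induce in many cells. It had 239, 392, 342 and 291 TPM in CCl4 libraries 1 to 4, and 324, 305, 325 and 343 TPM in vehicle libraries 1 to 4. CCl4 libraries lay on both sides of the vehicle range, with CCl4 1 the lowest and CCl4 2 the highest of all 8. The means were 316 ± 65.9 TPM in CCl4 and 324 ± 15.6 TPM in vehicle (SD, n = 4 each). The log2 fold change was 0.00 (SE 0.18, 95% interval -0.39 to 0.39, edgeR adjusted p = 0.998), and its sign differed between settings, from -0.14 to 0.12, with 0.09 without CCl4 4 and vehicle 2.

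Lgals8 (chr13:12439415-12464944, minus strand) encodes galectin-8, which recruits the autophagy receptor NDP52 to damaged vacuoles in human cells. It had 78, 96.3, 81.7 and 93.5 TPM in CCl4 libraries 1 to 4, and 89, 61.4, 87.9 and 90.2 TPM in vehicle libraries 1 to 4. Vehicle 2 was the lowest of the 8 libraries, and the other 3 vehicle libraries lay within the CCl4 range. The log2 fold change was 0.15 (SE 0.14, 95% interval -0.16 to 0.47, edgeR adjusted p = 0.555), and 0.12 without CCl4 4 and vehicle 2.

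Lgals4 (chr7:28833854-28841708, plus strand) encodes galectin-4, best known from the epithelium of the gut. At 6.4, 7.24, 8.69 and 7.78 TPM in CCl4 libraries 1 to 4, and 5.55, 5.57, 6.44 and 5.29 TPM in vehicle libraries 1 to 4, it was the lowest of the 6 genes in every library. The groups overlapped by a small margin, CCl4 1 lying below vehicle 3. Its counts ran from 95 to 152 in CCl4 libraries and from 94 to 113 in vehicle libraries, and the log2 fold change was 0.33 (SE 0.23, 95% interval -0.17 to 0.83, edgeR adjusted p = 0.391), or 0.43 without CCl4 4 and vehicle 2. Lgals6, a close copy of Lgals4 that some mouse strains carry, was not analysed here, and reads from such a copy could be counted with Lgals4, so its level is uncertain.

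Lgals3bp (chr11:118392751-118402092, minus strand) encodes a large secreted glycoprotein that galectin-3 and galectin-1 bind. It had 304, 472, 475 and 392 TPM in CCl4 libraries 1 to 4, and 392, 304, 375 and 347 TPM in vehicle libraries 1 to 4. Both ranges began near the same value, and CCl4 2 and CCl4 3 exceeded every vehicle library. The log2 fold change was 0.30 (SE 0.21, 95% interval -0.17 to 0.77, edgeR adjusted p = 0.404), and 0.28 without CCl4 4 and vehicle 2.

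**Figure D2:**
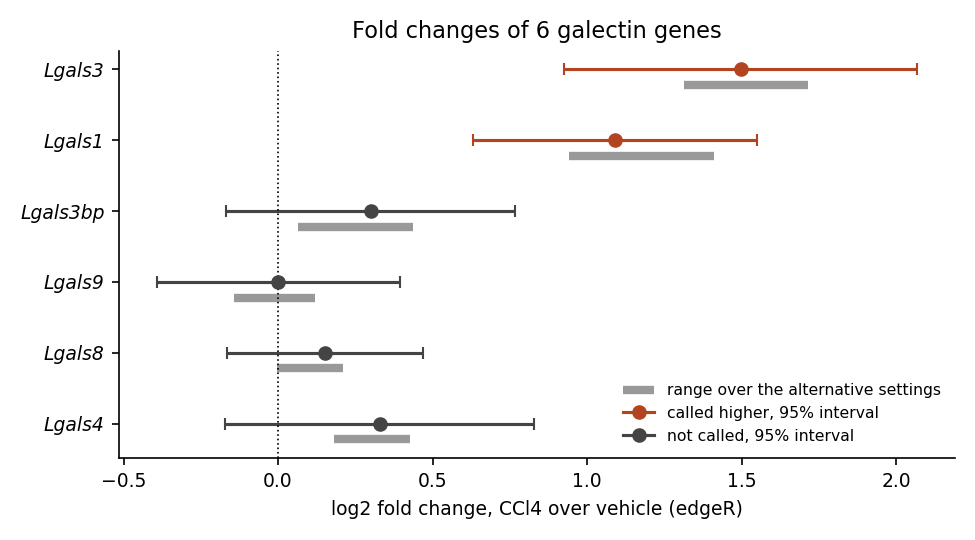
Log2 fold change of each gene, CCl4 over vehicle, by edgeR, with 95% intervals as thin bars and the range over the 19 alternative settings (17 for Lgals4) as grey bars. The intervals of Lgals3 and Lgals1 lie above 0, those of the other 4 genes include 0, and the grey bars of Lgals8 and Lgals9 reach below 0.

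Per length, the order of the levels differed between the groups. In CCl4 it was Lgals3, Lgals1, Lgals3bp, Lgals9, Lgals8 and Lgals4, and among neighbours only the ranges of Lgals3bp and Lgals9 overlapped, with Lgals3bp higher in 4 of 4 libraries. In vehicle it was Lgals3, Lgals3bp, Lgals9, Lgals1, Lgals8 and Lgals4, and the ranges of Lgals3bp and Lgals9 overlapped, as did those of Lgals9 and Lgals1, each pair in that order in 3 of 4 libraries. The ratio of Lgals1 to Lgals9 in TPM was 2.29, 1.73, 1.55 and 1.70 in CCl4 libraries 1 to 4, and 0.739, 1.15, 0.674 and 0.765 in vehicle libraries 1 to 4. Vehicle 2 was the single vehicle library in which Lgals1 exceeded Lgals9.

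Lgals3 made up 82.3%, 61.2%, 76.1% and 73.2% of the summed TPM of the 6 genes in CCl4 libraries 1 to 4, and 58.6%, 61.6%, 57.6% and 56.6% in vehicle libraries 1 to 4. In CCl4 2 its share lay within the vehicle range, while the other 3 CCl4 libraries were above it. The ratio of Lgals3 to Lgals1 was 9.99, 3.84, 8.64 and 7.07 in CCl4 libraries 1 to 4, and 6.20, 4.70, 6.29 and 5.21 in vehicle libraries 1 to 4. CCl4 2, with the lowest Lgals3 and the highest Lgals1 of its group, had the lowest ratio of all 8 libraries.

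**Figure D3:**
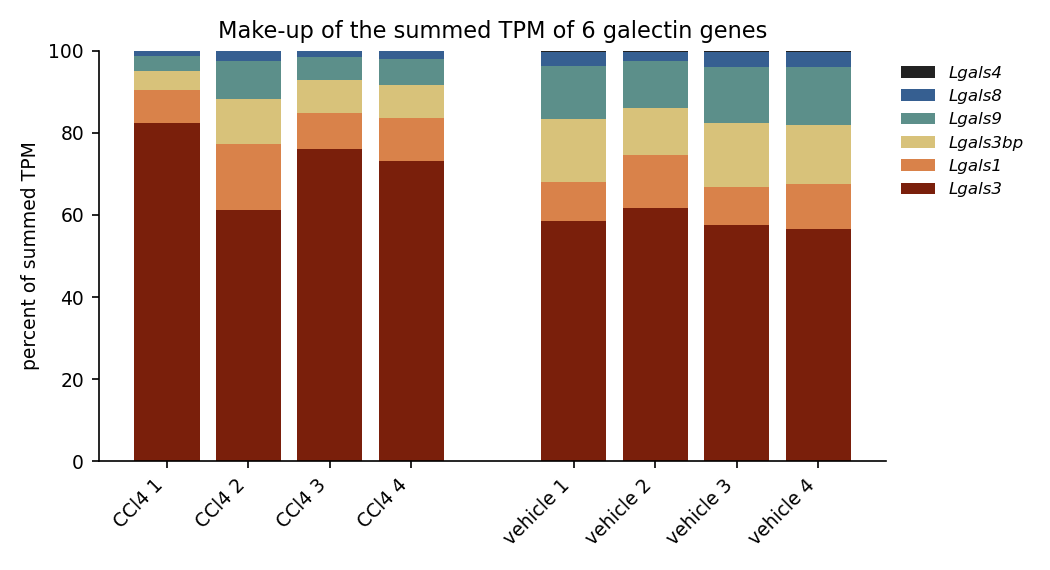
Share of each gene in the summed TPM of the 6 genes, as stacked percent, for CCl4 libraries on the left and vehicle libraries on the right. Lgals3 takes 61.2% to 82.3% in CCl4 libraries and 56.6% to 61.6% in vehicle libraries.

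Which transcripts carried each gene was estimated by kallisto, which divides reads between transcripts that share sequence. In Lgals9, the form without exon 5 (Lgals9-202, 966 coding bases) held 98.9%, 98.8%, 98.5% and 98.1% of the gene's TPM in CCl4 libraries 1 to 4, and 97.6%, 98.3%, 97.9% and 97.9% in vehicle libraries 1 to 4. The long form with the exon shown above (Lgals9-203, 1059 coding bases) was a minor transcript in every library. In Lgals3, the transcript Lgals3-203 held 81.7% ± 1.26 in CCl4 and 81.3% ± 1.05 in vehicle (SD, n = 4 each, exact two-sided permutation p = 0.629), and Lgals3-204 and Lgals3-201 have the same coding length of 792 bases. The difference of 0.429 percentage points was smaller than the SD within either group.

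Lgals8 was divided among more transcripts. Lgals8-201 held 35.9% ± 2.72 of its TPM in CCl4 and 38.2% ± 1.40 in vehicle (SD, n = 4 each, exact permutation p = 0.229). Lgals8-206, which lacks the 143-base exon 2 at chr13:12459174-12459316 and has 669 coding bases, held 30.4% ± 6.76 in CCl4 and 25.8% ± 4.94 in vehicle (SD, n = 4 each, exact permutation p = 0.257). At 2416 bases, against 2736 for Lgals8-201, Lgals8-206 differs from it by more than that exon. The transcript with the 27 extra bases shown above, Lgals8-208, held 10.1% ± 1.36 in CCl4 and 10.7% ± 4.65 in vehicle (SD, n = 4 each). For each of these transcripts the difference was smaller than the SD in at least 1 group.

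Lgals4 differed from the other genes in how little of it was protein-coding. Its coding transcript Lgals4-201 held 28.8%, 41.4%, 47.1% and 33.5% of its TPM in CCl4 libraries 1 to 4, and 41.5%, 43.1%, 47.7% and 69.0% in vehicle libraries 1 to 4. The groups overlapped, and vehicle 4 was the highest (mean 37.7% ± 8.14 in CCl4 and 50.3% ± 12.7 in vehicle, SD, n = 4 each, exact two-sided permutation p = 0.114). The retained-intron transcript Lgals4-203 took 40.5% ± 8.73 in CCl4 and 33.3% ± 13.0 in vehicle (SD, n = 4 each). Coding transcripts held at least 96.2% of Lgals1, Lgals3, Lgals3bp and Lgals9 in every library, and 73.5% to 87.2% of Lgals8. Of 8 transcript shares tested, the lowest adjusted p was 0.686 by the exact permutation test. The smallest possible p of this test with 4 against 4 libraries is 0.0286 before adjustment. After adjustment over 8 shares, a single share at that smallest p could not have been called. The test therefore cannot decide whether the share of a single transcript changed.

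**Figure D4:**
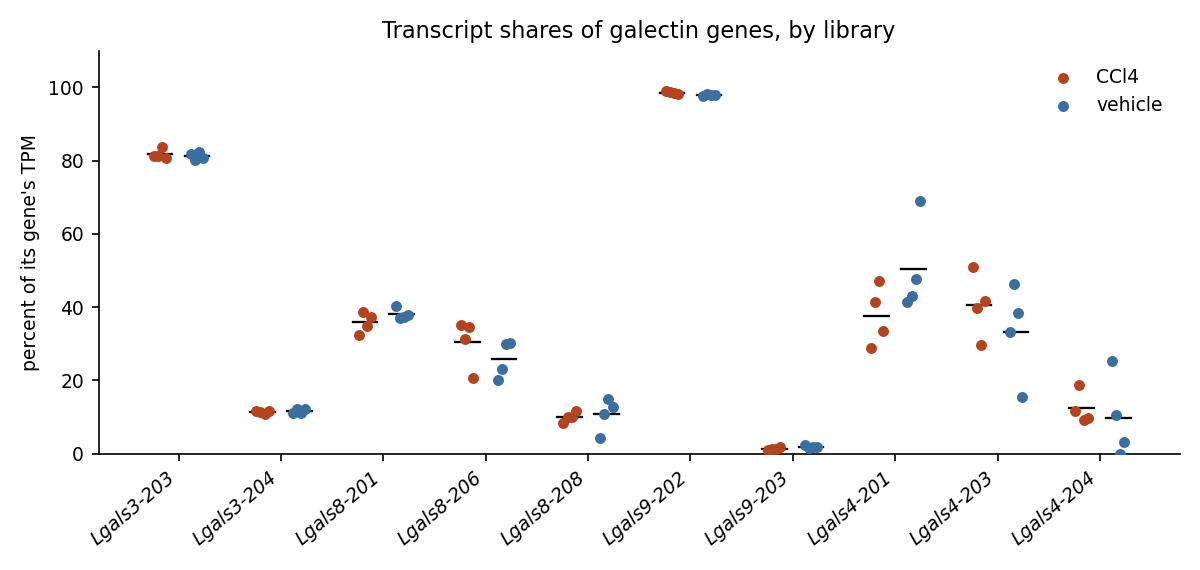
Percent of its gene's TPM held by each of 10 transcripts in each library, CCl4 left and vehicle right, with lines at the means (n = 4). Lgals9-202 and Lgals3-203 hold most of their genes in both groups, and the Lgals4 and Lgals8 shares spread widely within each group.

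Among the other galectin genes, Lgals2, Lgals7, Lgals12 and Grifin were under 1 CPM in every library and did not pass the filter on low counts with all 8 libraries. Lgalsl, which encodes a galectin-related protein that does not bind beta-galactosides, had 0.92, 1.01, 1.43 and 1.23 TPM in CCl4 libraries 1 to 4, and 1.55, 1.63, 1.57 and 1.69 TPM in vehicle libraries 1 to 4. Each CCl4 library lay below every vehicle library, but the difference, -0.58 on the log2 scale (SE 0.26), did not pass (edgeR adjusted p = 0.162).

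Partner genes were examined next, in lists of receptors, glycan enzymes, lysosome damage genes and interferon-stimulated genes, which with the other galectin genes held 105 tested genes. Of the glycoproteins known to bind galectins, 9 of 32 rose and 4 fell, with a median log2 fold change of 0.45, against 8.93%, 6.26% and -0.03 for all genes tested. Trem2 and Kdr are among 5 of the 32 that are also in the cell marker lists used below. Trem2, a lipid-sensing receptor that galectin-3 has been reported to bind, averaged 553 ± 100 CPM in CCl4 and 53.5 ± 8.34 CPM in vehicle (SD, n = 4 each, log2 fold change 3.37, edgeR adjusted p = 2.63e-06). Havcr2, which encodes the galectin-9 receptor TIM-3, had 81.6, 95, 87.2 and 76 CPM in CCl4 libraries 1 to 4, and 25.7, 16.3, 16.9 and 25.7 CPM in vehicle libraries 1 to 4. The groups did not overlap, and Havcr2 rose by 2.00 on the log2 scale (SE 0.19, edgeR adjusted p = 5.44e-05) while its ligand gene Lgals9 was not called.

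Pdpn, a mucin-type glycoprotein that galectin-8 binds, had the highest fold change of the list at a low level, averaging 13.5 ± 6.06 CPM in CCl4 and 0.506 ± 0.491 CPM in vehicle (SD, n = 4 each, log2 fold change 4.71, edgeR adjusted p = 0.000372). Vehicle 4 was the highest vehicle library, at 1.16 CPM, and without it the log2 fold change was 5.51. Vehicle libraries 2 and 3 had 0.19 and 0.08 CPM, too low for the filter on low counts. Pdpn thus passed the filter through the CCl4 libraries alone, which limits what its call can show. Mesothelial cells also express Pdpn, and 8 of 10 mesothelial markers rose, against 8.93% of all genes tested. Of these, Lrrn4, Wt1, Upk1b, Muc16 and Krt19 had vehicle libraries near 0, with Lrrn4 at 0 to 0.28 CPM. Such genes passed the filter on low counts through the CCl4 libraries alone and could hardly be called lower. The 10 markers summed to 80.1 to 218 CPM in CCl4 and 8.46 to 37.8 CPM in vehicle. The part of these cells in the level of Pdpn was not tested. Clec7a, which encodes the beta-glucan receptor dectin-1, averaged 2242 ± 294 CPM in CCl4 and 655 ± 161 CPM in vehicle (SD, n = 4 each, log2 fold change 1.77). The integrin genes Itgb2, Itgb3 and Itgav also rose, by log2 fold changes of 1.32, 1.26 and 0.86, and so did Cd276 (1.72) and Lamp2 (0.54). Lamp1, the lysosomal glycoprotein rich in poly-N-acetyllactosamine, was not called (log2 fold change -0.35, edgeR adjusted p = 0.243), and neither was Cd44 (0.57, edgeR adjusted p = 0.105).

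The 4 genes of that list that fell were Mcam (log2 fold change -1.50), Flt4 (-1.40), Kdr (-1.19) and Tfrc (-0.61). Mcam, Flt4 and Kdr are best known from endothelium, and 9 of 10 endothelial markers also fell, against 6.26% of all genes tested. The markers summed to 208 to 331 CPM in CCl4 and 603 to 955 CPM in vehicle. The part of these cells in the result was not tested. The call of Kdr ended without CCl4 2, CCl4 4, vehicle 1 or vehicle 4 (log2 fold changes over all settings from -1.41 to -0.63, edgeR or limma adjusted p of at most 0.188), and that of Tfrc ended without CCl4 3, CCl4 4 or vehicle 3. Length-scaled TPM counts put Tfrc at -0.19 (edgeR adjusted p = 0.737), and its call also ended in the fits to FPKM, where with limma on log2(FPKM + 1) its sign turned, to 0.036. Without CCl4 4 the receptor list had 2 genes called lower, where 883 of 15446 genes were lower. Limma on the filtered log2(FPKM + 1) values, with 20 of the list's genes tested, called 7 higher and 0 lower, against 7.05% and 8.54% of all genes (1 lower at an unadjusted p under 0.05, against 17.1%).

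Of the enzymes that build the sugars galectins bind, 9 of 23 rose and 2 fell, with a median log2 fold change of 0.42, against 8.93%, 6.26% and -0.03 for all genes tested. Mgat5, whose product makes the branched N-glycans that carry high-affinity galectin-3 ligands, averaged 35.0 ± 4.76 CPM in CCl4 and 16.6 ± 2.20 CPM in vehicle (SD, n = 4 each, log2 fold change 1.08, edgeR adjusted p = 0.000752). Gcnt2, which branches poly-N-acetyllactosamine chains, and B3gnt8, which extends them, had log2 fold changes of 1.76 and 1.69, and the galactosyltransferase gene B4galt5 had 1.12. St3gal6, which caps galactose with sialic acid, fell to 21.4 ± 3.04 CPM in CCl4, against 57.9 ± 8.35 CPM in vehicle (SD, n = 4 each, log2 fold change -1.44, edgeR adjusted p = 0.000159). Mgat2, which acts before Mgat5 on the way to branched N-glycans, fell as well (log2 fold change -0.73, edgeR adjusted p = 0.0103). The count of 9 depends on the table used: limma on the filtered log2(FPKM + 1) values called 0 of 15 tested enzymes higher and 2 lower, against 7.05% and 8.54% of all genes (2 higher at an unadjusted p under 0.05, against 11.7%), edgeR with library size only called 6 higher, and without vehicle 3 it called 5. Over all genes, library size only called 1082 of 15212 higher, and the fit without vehicle 3 called 1004 of 15687.

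In the list of the lysosome damage response that galectins take part in, 5 of 33 genes rose and 0 fell by edgeR, against 8.93% and 6.26% of all genes tested, with a median log2 fold change of 0.23. At an unadjusted p under 0.05 the counts by edgeR were 11 and 0, against 15.4% and 12.9% of all genes, and DESeq2 called 7 and 0, against 11.7% and 8.09%. Trim16, a ubiquitin ligase that works with galectin-3 on damaged endomembranes, had 6.06, 3.51, 3.53 and 3.09 CPM in CCl4 libraries 1 to 4, and 1.72, 1.39, 1.62 and 0.68 CPM in vehicle libraries 1 to 4. CCl4 1 stood above the rest of its group, the groups did not overlap, and the call (log2 fold change 1.58, edgeR adjusted p = 0.0145) ended without CCl4 1 (1.33, edgeR adjusted p = 0.0621). It also ended with length-scaled TPM counts (1.09, edgeR adjusted p = 0.142) and with limma on unfiltered log2(FPKM + 1) values (0.08, limma adjusted p = 0.664). Stk11, the kinase upstream of AMPK, rose by 1.00 (edgeR adjusted p = 0.00229), Gabarapl1 of the autophagy machinery by 0.69, and Rraga and Slc38a9, which link amino acids in the lysosome to mTORC1, by 0.62 and 0.49. Tfeb and Sqstm1 were not called (log2 fold changes 0.23 and 0.05, edgeR adjusted p = 0.386 and 0.91). The count was 3 without CCl4 1 and 1 by limma on the filtered FPKM values, and it was 9 without CCl4 4 and vehicle 2 together, where 1653 of 14982 genes were higher. Over all genes 1004 of 15761 were higher without CCl4 1, and 448 of 6359 by limma on the filtered log2(FPKM + 1) values.

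Of 16 interferon-stimulated genes, set beside Lgals9, 0 rose and 1 fell by edgeR, against 8.93% and 6.26% of all genes tested, with a median log2 fold change of -0.39. At an unadjusted p under 0.05 the counts by edgeR were 0 and 4, against 15.4% and 12.9% of all genes, and DESeq2 called 0 and 3, against 11.7% and 8.09%. Leaving out CCl4 2, CCl4 4, vehicle 1 or vehicle 3 took the count that fell to 0. Over all genes those fits called 857 of 15768, 883 of 15446, 675 of 15742 and 676 of 15687 lower. Library size only, upper-quartile scaling and the replicate block each called 3 lower, where 1431, 1356 and 829 of 15212 genes were lower. Limma on the filtered log2(FPKM + 1) values called 0 higher and 3 lower, against 7.05% and 8.54% of all genes. At an unadjusted p under 0.05 limma gave 0 and 8, against 11.7% and 17.1%. Without CCl4 4 and vehicle 2 the counts higher and lower were 9 and 4 for receptors, 9 and 2 for glycan enzymes, 9 and 0 for lysosome damage and 0 and 1 for interferon-stimulated genes. Over all genes that fit called 1653 higher and 1163 lower of 14982.

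**Figure D5:**
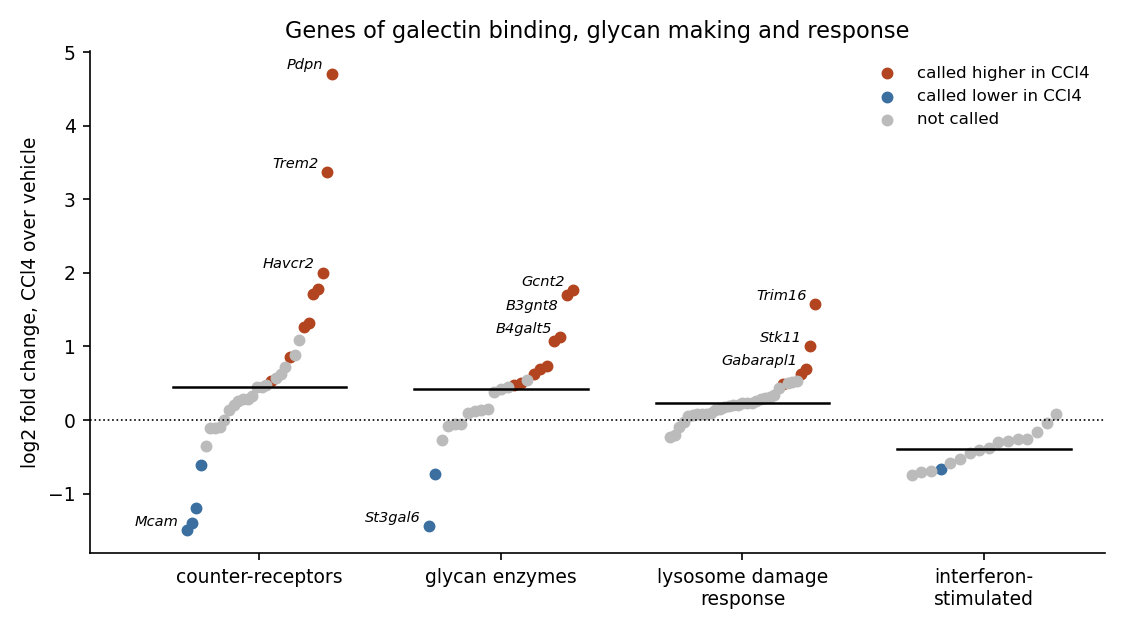
Log2 fold change, CCl4 over vehicle, of each tested gene of the 4 partner lists, ordered by size within a list, with lines at the list medians. Medians are 0.45, 0.42, 0.23 and -0.39 from left to right, and called genes are coloured.

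The promoter window of Lgals9 is shown because it is the one window among the 5 matched, with Lgals1 not among them, that holds both an interferon response element core and PU.1 cores. It is RefSeq sequence of GRCm38.p6, minus strand, chr11:78984947-78985174, 5′ to 3′ toward the gene, and leaves out the 22 bases next to the RefSeq start site, which lie in the first exon of Lgals9-202. Capitals mark matches to the PU.1 core, GAGGAA, to the IRF core, AANNGAAA, and to the interferon-stimulated response element core, all searched on both strands. The single match to the response element overlaps an IRF core, as every such match must, because the letters of the element contain those of the IRF core.
Lgals9 promoter: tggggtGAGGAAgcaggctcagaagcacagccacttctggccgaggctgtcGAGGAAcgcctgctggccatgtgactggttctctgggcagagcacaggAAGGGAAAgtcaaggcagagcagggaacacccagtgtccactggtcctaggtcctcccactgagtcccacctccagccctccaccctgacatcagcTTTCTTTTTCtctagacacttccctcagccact
The response element core lies 55 to 46 bases before the start site, and 2.98% of 32851 promoter windows of the same 250 bases hold one, while 21.3% hold an IRF core and 23.3% a PU.1 core. Lgals3bp had 1 IRF core, Lgals4 had 1 PU.1 core, and Lgals3 had 1 GC box (GGGCGG, in 32.7% of windows) 7 to 2 bases before its RefSeq start site. The IRF core lay 14 to 7 bases before the RefSeq site of Lgals3bp. The main transcript Lgals3bp-201 starts at -133 bases from that site, upstream of the core. In Lgals3, the main transcript Lgals3-203 starts at 104 bases from the RefSeq site and Lgals3-201 at -47, upstream of the GC box. The other motifs searched had no match in these 5 windows, neither the STAT core TTCNNNGAA nor the AP-1 site TGANTCA nor the E-box CACGTG nor the TATA box TATAAA, and Lgals8 had none of the 8. A match is a description of letters and not of binding.

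The genes whose profiles over the 8 libraries lay closest to that of Lgals3, by root-mean-square difference of centred log2 CPM among genes with a mean of at least 10 CPM, were Rhoc (0.16), Tpm1 (0.20) and Aldoc (0.21). Rhoc encodes a small GTPase, Tpm1 a tropomyosin and Aldoc a glycolytic aldolase, and their own log2 fold changes were 1.30, 1.65 and 1.33. Closest to Lgals1 were Psmb6 (0.15), Usf2 (0.16) and Csf2rb2 (0.16), with log2 fold changes of 1.13, 0.88 and 1.04. The difference between the groups is part of the distance, so fold changes near those of Lgals3 and Lgals1 follow from the rule.

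Markers of macrophage kinds also differed between the groups, where 8.93% of all genes tested rose and 6.26% fell. All 10 markers of lipid- and scar-associated macrophages rose, Trem2 among them, with summed levels of 95219 to 148349 CPM in CCl4 and 42229 to 54902 CPM in vehicle. Apoe made up most of these sums, at 72748 ± 16074 CPM in CCl4 and 43639 ± 5685 CPM in vehicle (SD, n = 4 each). The log2 fold changes of the 10 ran from 0.74 (Apoe) to 8.28 (Gpnmb), so the sums understate the rise of the less abundant markers. Of 10 Kupffer cell markers 9 fell, with 6840 to 12411 CPM in CCl4 and 22045 to 32050 CPM in vehicle, and of 10 monocyte markers 4 rose, with 1169 to 1489 CPM in CCl4 and 396 to 889 CPM in vehicle. Of 8 general macrophage markers 2 rose, and Adgre1, which encodes the F4/80 of the sort, was not called. Their part in the rise of Lgals3 and Lgals1 was not tested.

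Markers of several other cell types also differed, where 8.93% of all genes tested rose and 6.26% fell. Of 12 neutrophil markers 7 rose (247 to 537 CPM in CCl4 and 106 to 236 CPM in vehicle), and the mesothelial list rose as given beside Pdpn. The neutrophil marker Elane, at 0 CPM in every vehicle library, passed the filter on low counts through the CCl4 libraries alone, as did Krt19, named below. Of 10 stellate cell markers 3 rose and 2 fell (175 to 359 CPM in CCl4 and 128 to 509 CPM in vehicle), and of 7 tested cholangiocyte markers 3 rose, Spp1, Krt7 and Krt19 (1493 to 3369 CPM in CCl4 and 22.4 to 237 CPM in vehicle for the whole list). The keratin genes averaged 6.33 ± 2.39 CPM (Krt7) and 6.44 ± 4.10 CPM (Krt19) in CCl4, and 2.41 ± 0.694 CPM (Krt7) and 0.943 ± 1.16 CPM (Krt19) in vehicle (SD, n = 4 each). Epcam was not called (log2 fold change 1.17, edgeR adjusted p = 0.13). Without Spp1, which macrophages also express, the cholangiocyte list summed to 17.3 to 32.5 CPM in CCl4 and 4.07 to 15.4 CPM in vehicle, with Cftr under 1 CPM in every library. Of 10 hepatocyte markers 1 fell, against 6.26% of all genes (67.1 to 137 CPM in CCl4 and 101 to 171 CPM in vehicle). Of 9 lymphoid markers 0 rose and 0 fell by edgeR or DESeq2 (146 to 411 CPM in CCl4 and 78.4 to 236 CPM in vehicle). The shares of all genes by DESeq2 were 11.7% and 8.09%. At an unadjusted p under 0.05 by edgeR 1 lymphoid marker was lower, against 12.9% of all genes. The part of these cells in the galectin values was not tested.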

How the data were processed

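Per the file headers, each sample's deposited table is kallisto output with the estimated count and the TPM of every transcript. The authors also deposited a table of FPKM per gene, whose column sums ran from 81157 to 113869, and the sources used here do not say how it was made. The tools named, per the submitters' processing notes, are kallisto, edgeR and limma, with mm10 as the build. No strand-marking step is named, so overlapping antisense genes cannot be told apart.

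Of 117494 transcripts, 116405 matched GENCODE M21 identifiers without version suffix (13 with it), and the 1089 unmatched held 0.29% to 0.313% of counts. Estimated counts were summed per gene and rounded. The 15212 genes passing filterByExpr (minimum count 10, total 15) were tested two-sided with edgeR 4.0.16 (quasi-likelihood, TMM, group as sole term, R 4.3.3), threshold 0.05. SE is the log2 fold change over the square root of F, and levels are TMM CPM or TPM. Marker sums use TMM CPM. Transcript shares were tested in genes with 20 counts or more, for transcripts with a mean share of at least 10%. Alternatives used other scalings and filters, DESeq2 1.42.0, limma 3.58.1 on log2(FPKM + 1) or log2(FPKM + 0.1), a replicate block and left-out libraries. The FPKM table's 1 unnamed line was left out. Within-group pairs of libraries differed well beyond sampling noise (mean chi-square per gene of at least 30.6). The edgeR, DESeq2 and limma steps were tested on simulated data.

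Members and lists were chosen with earlier results of these data known. Named genes were the 6 members, up to 4 called genes with the highest and up to 4 with the lowest fold change per partner list, and the 3 closest profiles. Others named were chosen after their values were seen. Values of some single genes that these rules would name are not reported here.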

Additional observations from a re-analysis of the deposited data

Results flagged for a closer look

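In 3 of 68 groups of 4 libraries examined, 1 library lay apart from the other 3 by more than Dixon's 95% critical value for the gap over the range, and chance gives about 1 in 20 groups. Vehicle 1 had the highest Mgat5 of its group, at 19.9 CPM against 15.5 to 15.6 CPM in the other vehicle libraries (ratio 0.973). CCl4 2 had the lowest Stk11 of its group, at 22.1 CPM against 34.7 to 35.4 CPM in the other CCl4 libraries (ratio 0.947). CCl4 1 had the highest Trim16 of its group, at 6.06 CPM against 3.09 to 3.53 CPM in the other CCl4 libraries (ratio 0.852). No group of Lgals1, Lgals3, Lgals3bp, Lgals4, Lgals8 or Lgals9 values was among the 3.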

How the results depend on the processing

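Lgals3 and Lgals1 were called higher under each of 19 alternatives, with log2 fold changes of 1.31 to 1.71 and 0.94 to 1.41 and adjusted p of at most 0.0375 and 0.0481, while Lgals3bp (0.06 to 0.44), Lgals8, Lgals9 and Lgals4 (0.18 to 0.43 in 17) were called in none. The sign of Lgals9 turned with library size only (-0.14), upper-quartile scaling (-0.10), length-scaled TPM counts (-0.0023) and limma on FPKM (-0.13 in all 3 fits), and with left-out libraries it ran from -0.10 to 0.12. Lgals8 turned in the FPKM fits (-0.0033 with a pseudocount of 1, filtered or not, and -0.0016 with 0.1), as did Tfrc with a pseudocount of 1 (0.036). Over all genes, library size only called 1431 lower, the FPKM fits called 448, 436 and 335 higher and 543, 521 and 315 lower (log2(FPKM + 1), log2(FPKM + 0.1), unfiltered), and left-out libraries gave 1004 to 1503 higher and 578 to 1163 lower. For other galectins and partner genes together (23 higher, 7 lower), the FPKM fits called 8, 7 and 8 higher and, with 0.1 and unfiltered, 4 and 2 lower, and left-out libraries gave 16 to 25 higher and 4 to 7 lower. Left-out libraries moved the share difference of Lgals3-203 between -0.19 and 0.80 points, of Lgals4-204 between -0.71 and 7.77, and of Lgals8-208 between -2.82 and 0.75. Among the named partner genes, 33 values under alternatives lost the call with the sign kept, and 2 others, both of Tfrc, turned sign and lost it. The causes were not tested. No pairing by replicate number was seen (correlations of same-numbered deviations 0.015, -0.24, 0.039 and -0.17), though with 4 libraries per group these values cannot exclude it. With replicate number as a block 1281 genes were higher and 829 lower, Lgals3 was at 1.44, Lgals1 at 1.11 and Lgals9 at -0.031. Counts of 94 to 152 limit Lgals4.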

Other observations

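Lgals2, which encodes galectin-2 and was set aside by the count filter, had 10, 10, 19 and 20 estimated counts in CCl4 libraries 1 to 4, and 3, 1, 0 and 3 in vehicle libraries 1 to 4. The groups did not overlap. With no filter on low counts its log2 fold change was 3.14 (edgeR adjusted p = 0.0438), and by limma on unfiltered log2(FPKM + 1) it was 0.29 (limma adjusted p = 0.0481). It passed the filter and was called higher in 5 fits that left out 1 library each, without CCl4 2 or any 1 vehicle library, with log2 fold changes of 2.72 to 3.48 and edgeR adjusted p of 0.029 to 0.0487. Its vehicle counts were too low for the filter, so in these fits it passed through the CCl4 libraries alone. The fits share most of their libraries and are not independent of each other. Lgals7 had 1 to 8 counts in CCl4 libraries and 0 to 3 in vehicle libraries.

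A short coding transcript of the galectin-3-binding glycoprotein gene, Lgals3bp-205, took 27.2% of that gene's TPM in vehicle 2, against 2.6% to 9.7% in the other 7 libraries. As a share of the gene's counts it was 7.3% in vehicle 2.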
